A study of Mus musculus with 3 samples.

Results

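Wound macrophages chosen in part by transcripts of the chemokines Ccl2, Ccl7 and Ccl12 were described in digested mouse liver after irreversible electroporation (IRE). Members were chosen by their own counts. A barcode with at least 200 detected genes was kept, and it was a member when at least 2 of 4 rule genes, of which 3 are these chemokines, had a UMI (unique molecular identifier, 1 counted transcript molecule). It also had to carry fewer than 2 of 6 neutrophil genes (Retnlg, Cxcr2, Csf3r, Stfa2l1, Mrgpra2b, Il1f9), fewer than 2 of 5 Kupffer cell genes (Clec4f, Vsig4, Cd5l, Marco, Cd209f) and fewer than 2 of 4 genes of Gpnmb-type macrophages (Gpnmb, Trem2, Atp6v0d2, Mmp12). Of 25263 kept barcodes, 965 were members. At 7 days after injury 441 of 906 members had at least 2 of the 3 chemokines and the others had 1.

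After tissue injury, monocytes leave the blood, enter the wound and turn into macrophages that clear debris and steer repair. Ccl2, Ccl7 and Ccl12 are ligands of the receptor Ccr2, through which monocytes are drawn from the bone marrow into inflamed tissue. Macrophages that form from these monocytes can in turn release such chemokines and so draw in further cells.

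Each of the 3 Drop-seq libraries was made from adult C57BL/6 mice, with 3 livers pooled per library. The electroporated area was cut out with a 4 mm punch and digested with enzymes at 1 day or at 7 days postinjury (p.i.). According to its label, the control library came from mice with sham surgery that were sacrificed after 1 day, and the study's methods describe its tissue as the equivalent area without injury. All animals carried the same strain background and no transgene is named for these libraries.

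Each condition had 1 library, so that nothing could be tested across samples and the effect of a condition cannot be told apart from that of its library. Cells were not taken as replicates. Fewer cells of a type cannot be told apart from fewer cells captured. Intervals in brackets are exact at 95% and cover counting error only. The kept barcodes held 3058967 to 8013800 UMIs per library, with a median of 456.5 to 595 per barcode. Some barcodes occurred in more than 1 library. Control and 1 day p.i. shared 233 of them, control and 7 days p.i. 202, and 1 day and 7 days p.i. 738, where random draws of 12 bases would give 11.7 to 17.0. Of the members at 7 days p.i., 44 had a barcode also found at 1 day p.i. and 6 one found in control, whereas no member of the other libraries had a shared barcode. The share of members at 7 days p.i. was 16.1% with the shared barcodes and 16.2% without them.

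Nearly all members came from the wound at 7 days p.i. There they made up 906 of 5624 kept barcodes, 16.1% (15.2% to 17.1%). In control they were 45 of 10386, 0.433% (0.316% to 0.579%), and at 1 day p.i. 14 of 9253, 0.151% (0.0827% to 0.254%). Thus 93.9% of all members came from 1 library, and at full depth the counting intervals of the 3 libraries do not overlap. The median depth of kept barcodes was 595 UMIs in control, 509 at 1 day p.i. but 456.5 at 7 days p.i. When each barcode was thinned to 300 UMIs and shallower ones were left out (209 in control, 298 at 1 day p.i., 545 at 7 days p.i.), the shares were 0.167%, 0.134% and 15.7%. They rest on 17, 12 and 795 barcodes. Control and 1 day p.i. thus lay closer together than at full depth.

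**Figure D1:**
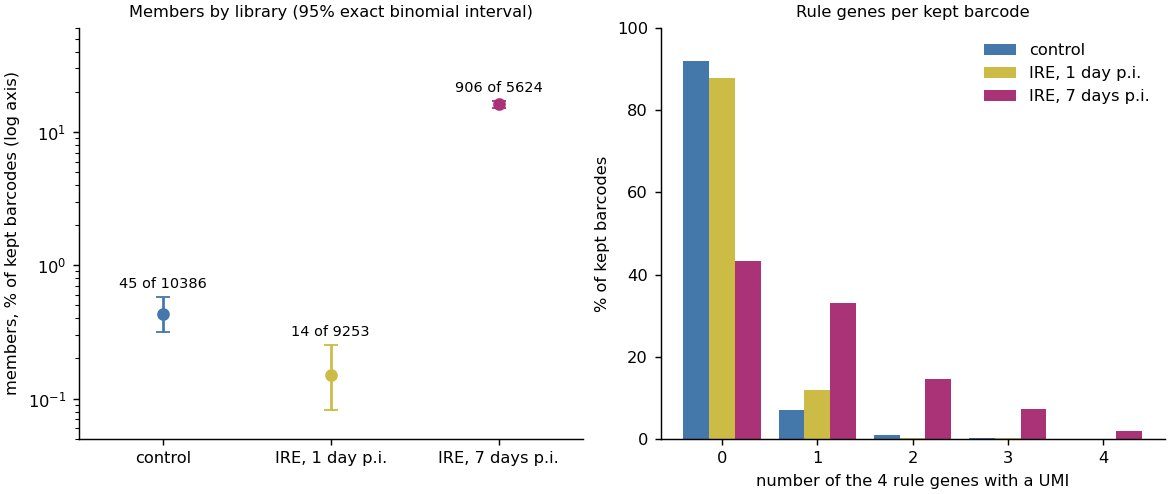
Left, members as a percentage of kept barcodes in each library on a log axis, with 95% exact binomial intervals and the counts written above. Right, the percentage of kept barcodes (linear axis) with 0 to 4 of the rule genes; at 7 days p.i. 43.3% had none, whereas in control 92.1% had none.

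The rule genes were not spread evenly around the threshold. At 7 days p.i., 1856 kept barcodes had 1 rule gene, 819 had 2, 411 had 3 and 102 had all 4. In control the counts were 719, 88, 14 and 3, and at 1 day p.i. 1102, 19, 7 and 0. Of the 1332 barcodes with at least 2 rule genes at 7 days p.i., the exclusions removed 378 for neutrophil genes, 42 for Kupffer cell genes and 34 for Gpnmb-type genes, with some removed by more than 1. In control 40 of 105 were removed for Kupffer cell genes and at 1 day p.i. 12 of 26. Without the exclusions 23.7% of kept barcodes at 7 days p.i. would be members, 0.281% at 1 day p.i. and 1.01% in control. Just outside the rule, the 378 barcodes with both rule and neutrophil genes had a median of 704 UMIs, against 492.5 in the members. They held S100a8 at 16152 CPM (the UMIs of a gene in 1000000 UMIs of the cells), between the 7561 CPM of members and the 41888 CPM of barcodes with neutrophil genes but fewer than 2 rule genes. No doublet caller was run, and whether these barcodes hold 1 cell or 2 was not tested.

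Rule genes also had UMIs in cells of other kinds. At 7 days p.i. 162 barcodes, at a median of 525 UMIs, had at least 2 genes of T cells, B cells, NK cells or endothelium. Of these, 12 had at least 2 rule genes, a share of 7.41% (3.89% to 12.6%). Among all kept barcodes it was 23.7% at a median of 456.5 UMIs. Thinned to 300 UMIs the shares were 4.05% and 18.1%. The 157 of these barcodes that were no members serve below as the reference for free RNA, and their level is called the reference level. Leaving out the members lowers the rule genes in it. Over all 162 barcodes Ccl2 was at 399 CPM and Ccl7 at 189 CPM, and without the members at 257 and 113 CPM. Barcodes with fewer than 200 genes at 7 days p.i. had Ccl2 at 654 CPM, Ccl7 at 302 CPM and Spp1 at 3067 CPM, above this reference. The reference barcodes were not asked to lack macrophage genes. The 5 Kupffer cell genes of the rule took 0.134% of their UMIs and 0.0855% in all kept barcodes that were no members. In members, where the exclusions limited them, they took 0.0126%. How many reference barcodes also hold RNA of a macrophage was not tested. Of the 906 members, 554 had exactly 2 rule genes, and how many of these hold them from free RNA was not tested.

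The rule chemokines were counted in each library. At 7 days p.i. Ccl2 had 2945 UMIs in 816 of the 906 members, 5727 CPM (5522 to 5938), with a median of 2 in these carriers and a highest value of 57. Ccl7 had 1280 UMIs in 459 members, 2489 CPM (2355 to 2630), and Ccl12 had 290 UMIs in 144 members, 564 CPM (501 to 633). These values took part in choosing the members and are a description. The counts were uneven between members. The 91 members with the most UMIs of a gene held 39.6% of the UMIs for Ccl2, 54.0% for Ccl7 and 81.7% for Ccl12. The members, 16.1% of the kept barcodes, held 59.6% of the library's kept Ccl2 UMIs, 65.3% of Ccl7 and 58.2% of Ccl12.

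In control Ccl2 had 42 UMIs in 34 of the 45 members, 976 CPM (703 to 1319), Ccl7 42 UMIs in 28 members and Ccl12 27 UMIs in 15 members, 627 CPM (413 to 913). At 1 day p.i. Ccl2 had 25 UMIs in 13 of the 14 members, 3093 CPM (2001 to 4565), Ccl7 13 UMIs in 6 members and Ccl12 2 UMIs in 2 members. Since the rule asks for these genes, their levels within members are partly set by it and by depth, which had a median of 888 UMIs in the members of control and 492.5 at 7 days p.i. Over all kept barcodes Ccl2 was at 46.9 CPM in control, 17.5 at 1 day p.i. but 1615 at 7 days p.i., and Ccl12 at 18.1, 2.13 and 163 CPM. All 4 rule genes were found in 64 members at 7 days p.i. and in none of the other libraries.

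**Figure D2:**
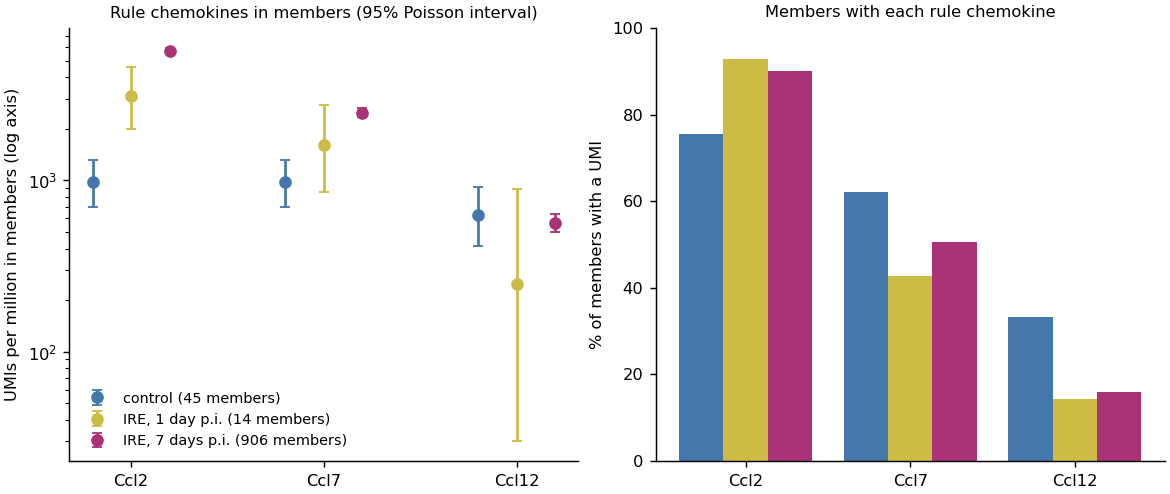
Left, the rule chemokines Ccl2, Ccl7 and Ccl12 in the members of each library in CPM on a log axis, with 95% Poisson intervals. Right, the percentage of each library's members (linear axis) with at least 1 UMI of each; Ccl2 was found in 75.6% of members in control, 92.9% at 1 day p.i. but 90.1% at 7 days p.i.

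The label of macrophage was checked against marker lists. At 7 days p.i. the 12 macrophage markers took 1.48% of the members' UMIs (1.45% to 1.51%), against 0.426% at the reference level. The list took 1.12% in neutrophils, 1.30% in all other kept barcodes of the library and 1.79% in the other mononuclear phagocytes, so that it set members apart from lymphocytes and endothelium more than from the rest of their library. Of the members, 885 of 906 had at least 1 of them, 617 at least 3. At least 3 were found in 42 of the 45 members of control and in 10 of the 14 at 1 day p.i. Lyz2 (lysozyme) was at 8092 CPM against a reference level of 1489, Cd68 (a lysosomal membrane protein of macrophages) at 871 against 195 and Fcgr1 (the high-affinity IgG receptor) at 749 against 123. The defining genes of mature tissue macrophages were low. Csf1r, the receptor for CSF1, was at 218 CPM (179 to 262) against 134, Adgre1 (F4/80, listed as Emr1) at 72.0 CPM (50.7 to 99.2) with 37 UMIs, and C1qb, a subunit of complement C1q, at 607 against 452.

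Markers of other cells were mostly near 0. The 8 Kupffer cell markers took 0.0191% of the UMIs, but 5 of them are excluding genes of the rule. The other 3 took 0.00642%, near the 0.00924% of the reference barcodes, with Timd4 at 1 UMI. Hepatocyte markers took 0.0298%, with 39 UMIs of Alb (albumin). Mesenchymal markers took 0.000583% and lymphocyte markers 0.00622%. Neutrophil markers were the exception at 1.48% (1.45% to 1.52%), with 3 as the median number of detected markers, and 452 of 906 members had exactly 1 of the 6 excluding neutrophil genes. S100a8 was at 7561 CPM in members, at 9212 CPM in the reference barcodes and at 41888 CPM in barcodes with neutrophil genes. S100a9 was at 5076, 8216 and 33448 CPM. The exclusions held the 6 neutrophil genes of the rule to 0.139% of UMIs in members and did not apply to the reference barcodes, where they took 0.345%. Whether the S100a8 and S100a9 counts of members come from free RNA was not tested.

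Monocyte markers were found in a part of the members. Of the 906 members, 267 (29.5%) had at least 2 of Ly6c2, Ccr2, Plac8 and Vcan. These 4 genes took 0.337% of the UMIs of members, 0.318% in the other kept barcodes of the library and 0.662% in the other mononuclear phagocytes described below, which were partly chosen by them, so that members were close to their library. Ccr2, the receptor of the rule chemokines, was at 867 CPM (789 to 952) against a reference level of 246. Plac8 was at 1344 CPM against 832 and Chil3 (listed as Chi3l3), a chitinase-like protein of monocytes, at 1311 CPM against 246. Ly6c2 was at 793 CPM (718 to 874), below the 1592 CPM of the reference barcodes. This gene is also made by T cells and endothelium. The markers of dendritic cells had 8 UMIs in all members together.

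Which genes set the members apart was first asked against neutrophils of the same library. These were the 1705 barcodes with at least 2 of the 6 neutrophil genes and fewer than 2 rule genes, at a median of 468 UMIs. Ppbp, Pf4, Ccl9, 4 of 14 lysosomal genes and 6 of 9 tested wound matrix and lectin genes were at least 2-fold higher in members. The granule genes Ngp and Pglyrp1, Il1b and 4 immediate early genes were lower, but the gates asked for neutrophil genes in one group and against them in the other, which sets the low end of the order in part. Of 3638 genes with at least 50 UMIs in both groups together, genes of the gates left aside, 190 were at least 2-fold higher in members (5.22%) and 295 at least 2-fold lower (8.11%). The higher calls were 39.2% of all calls, and 25.7% (123 higher and 355 lower) when the median gene ratio, which stood at 0.12 on the log2 scale, was set to 1. With each barcode thinned to 300 UMIs the balance turned, at 261 higher and 212 lower of 1816 genes. With a minimum of 300 genes per barcode the counts were 60 and 136, and without shared barcodes 195 and 274.

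The highest ratio belonged to Ppbp (platelet basic protein, also called Cxcl7), which was 9.35-fold higher (5.67 to 16.2) at 189 CPM in members. Pf4 (platelet factor 4, or Cxcl4), which macrophages as well as platelets make, was at 2271 CPM in members, 323 in neutrophils and 144 in the reference barcodes, 7.03-fold higher (6.19 to 8.01). Ccl9 was at 3314 CPM and 4.04-fold higher (3.70 to 4.40). Ccl24 (eotaxin-2) was at 578 CPM and 3.97-fold higher (3.23 to 4.90). All of these chemokines exceeded their reference level as well. Ednrb, an endothelin receptor, was 4.83-fold higher, the membrane protein Emp1 4.45-fold, Pdpn (podoplanin) 4.27-fold and Ctsl (cathepsin L) 3.85-fold. Timp1, an inhibitor of metalloproteinases, was 3.43-fold higher (2.31 to 5.17) at 146 CPM, but its reference level of 339 CPM was above that of the members. Rgl1, Tbxas1 (thromboxane synthase) and Cd200r1 completed the 12 highest genes, with ratios of 3.55, 3.43 and 3.33.

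At the low end stood Stfa2, Stfa1 and BC100530, which are stefin genes of one family whose reads may be split between near-identical copies, with ratios of 0.0604 (0.0122 to 0.182), 0.0904 (0.0241 to 0.241) and 0.0963 (0.0193 to 0.296). Ngp (neutrophilic granule protein) was at 27.2 CPM in members and 446 in neutrophils, a ratio of 0.0610 (0.0331 to 0.104). Pglyrp1, a peptidoglycan-binding granule protein, had a ratio of 0.0763. Cxcl13, Sepn1 and Aqp1 had ratios of 0.0904, 0.111 and 0.117 (0.0233 to 0.363), each on 3 or 4 UMIs in members.

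By list, 4 of 12 tested chemokines outside the rule were at least 2-fold higher than in neutrophils, and 2 were lower, namely Ccl5 (0.359) and Cxcl2 (0.451), with a list median of 0.57 (log2 ratio) against 0.12 over all genes tested. Of all genes tested 5.22% were higher and 8.11% lower. Of 9 tested wound matrix and lectin genes, 6 were higher and none lower, with a median of 1.08. They were Fn1 (fibronectin, 2.73-fold), Lgals1 (galectin-1, 3.07-fold), F13a1 (the transglutaminase subunit of clotting factor XIII, 2.64-fold), Spp1 (osteopontin, 2.39-fold), Lgals3 (galectin-3, 2.11-fold) and Ecm1 (2.02-fold). Of 14 lysosomal genes 4 were higher (Ctsl, Ctsb, Lgmn and Psap), and the list had a median of 0.85. Of 8 tested genes of the uptake of dead cells 3 were higher, namely the scavenger receptors Cd36 (3.10-fold) and Msr1 (2.57-fold) and the receptor kinase Mertk (2.12-fold, 1.39 to 3.25). Of 13 pattern recognition genes 4 were higher (Fcgr1, Fcgr2b, Msr1 and Clec4n) and Trem1 and Trem3 lower, with a list median of -0.13.

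Some inflammatory genes were lower. Over all genes tested against neutrophils 5.22% were at least 2-fold higher and 8.11% lower. Of 8 tested genes of the inflammatory cytokine list none was at least 2-fold higher, and Il1b (0.307), Tnf (0.439) and Nlrp3 (0.468) were lower, with Il1b at 869 CPM in members, 2829 in neutrophils and 811 at the reference level. Of 11 immediate early genes 4 were lower (Egr1, Junb, Dusp1 and Jund). Of 24 tested genes of the low oxygen response and glycolysis none passed the fold in either direction, with a list median of 0.21. Hilpda, a lipid droplet protein induced by low oxygen, was at 764 CPM in members and 776 in neutrophils, a ratio of 0.986 (0.870 to 1.12). Mmp9 (gelatinase B) was lower at 0.197 (0.152 to 0.252).

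The closest cells were the other mononuclear phagocytes of the same library. These were 856 barcodes with at least 2 Kupffer cell, Gpnmb-type or monocyte genes that were no members and had fewer than 2 neutrophil or lymphocyte genes, at a median of 517.5 UMIs. Most of them (678) had the monocyte genes, 138 the Kupffer cell genes and 45 the Gpnmb-type genes. Against them, members were higher in Ppbp, Cxcl3 and Pf4, in osteopontin and thrombospondin and in 3 growth factors. They were lower in C1qa, C1qc and 6 of 7 tested genes of the MHC class II list. This list also holds Ciita and the costimulation genes Cd86 and Cd40. Of 2963 genes, 58 were at least 2-fold higher (1.96%) and 91 at least 2-fold lower (3.07%). With the median gene ratio, which was -0.09 on the log2 scale, set to 1, the counts were 78 and 74, so that the higher calls moved from 38.9% to 51.3%. Without shared barcodes 55 were higher and 94 lower.

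Ppbp led again with 8.65-fold (4.63 to 17.9). Cxcl3, a chemokine that attracts neutrophils through Cxcr2, was at 3427 CPM in members, 682 in the other phagocytes and 904 at the reference level, 5.02-fold higher (4.47 to 5.66). Spp1 was at 7369, 2056 and 442 CPM, 3.58-fold higher (3.35 to 3.84), but the 45 Gpnmb-type barcodes among these phagocytes had 10327 CPM (9306 to 11428), above the members. Pf4 was 3.90-fold higher (3.43 to 4.44). Inhba, the subunit of activin A, was 5.69-fold higher (3.27 to 10.6) at 169 CPM, and Clu (clusterin) 5.89-fold (3.25 to 11.5) at 152 CPM. Clu was at 252 CPM in neutrophils, above the members. Pdpn (4.96-fold), Ednrb (4.06-fold), Emp1 (3.81-fold), Tmem189 (3.52-fold), the transcription factor Mitf (3.17-fold) and F7 (clotting factor VII, 3.16-fold) completed the 12 highest genes.

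Several of the lowest genes are known from resident macrophages. Cxcl13 was at 7.78 CPM in members and 311 in the other phagocytes, a ratio of 0.0250 (0.00673 to 0.0653). Pltp (phospholipid transfer protein) had a ratio of 0.0426 (0.00859 to 0.130) on 3 UMIs in members, Hpgd (prostaglandin dehydrogenase) of 0.0701, the adhesion molecule Vcam1 of 0.109 and the tetraspanin Cd81 of 0.118. Fcna (ficolin A) had 0.133, Ear2 0.138 and Slc40a1, the iron exporter ferroportin, 0.168 (0.0974 to 0.275). Of the 856 compared barcodes 138 were selected on Kupffer cell genes, and the exclusions kept members with these genes out, so that this end of the order is partly set by the rule.

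**Figure D3:**
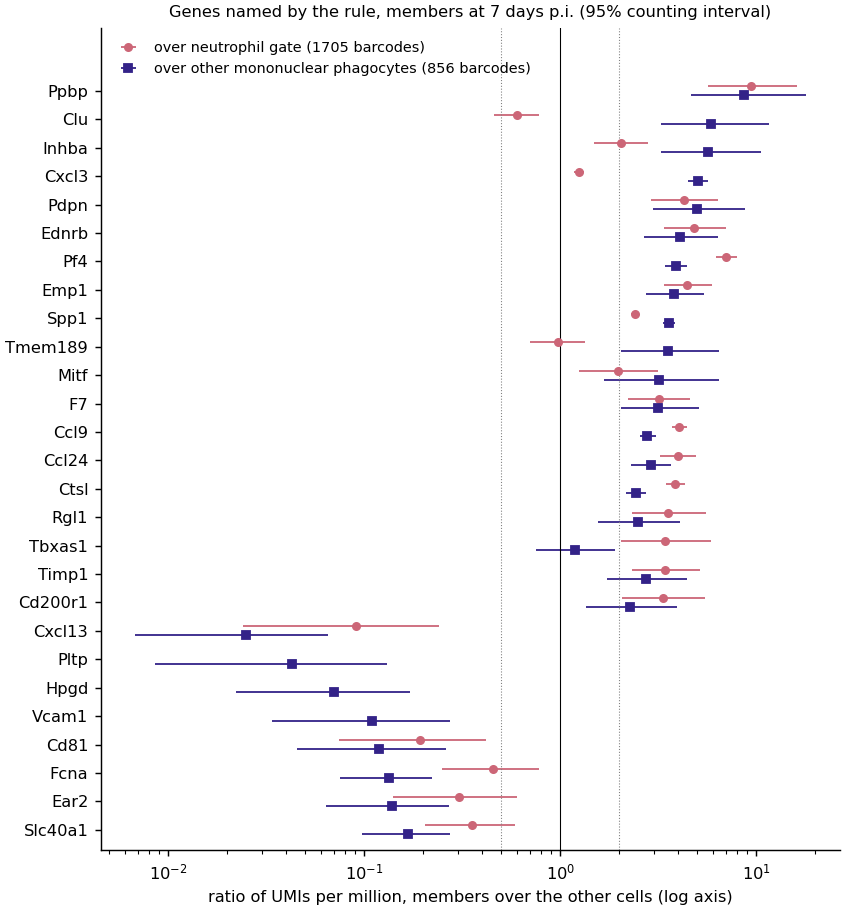
Ratio of CPM in members at 7 days p.i. over neutrophil-gate barcodes (circles) and over other mononuclear phagocytes (squares), on a log axis with 95% counting intervals; dotted lines mark 2-fold, and a gene under 50 UMIs in a comparison has no point there. The members are the same in both ratios; Ppbp, Pf4, Pdpn, Ednrb and Emp1 lie above 2-fold on both, whereas Cxcl3, at 5.02-fold over phagocytes, was 1.25-fold over neutrophils.

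By list, 6 of 12 tested chemokines were at least 2-fold higher than in the other phagocytes (Ppbp, Cxcl3, Pf4, Ccl24, Ccl9 and Ccl6), and Ccl5 was lower, with a list median of 1.16 against -0.09 over all genes tested. Of all genes tested 1.96% were higher and 3.07% lower. Ccl6 was at 8081 CPM in members, 3133 in the other phagocytes and 1304 at the reference level. Of 5 tested growth factors Inhba, Vegfa (2.87-fold, 1.83 to 4.62) and Hbegf (2.13-fold, 1.17 to 4.04) were higher, and Igf1 was lower at 0.192 (0.0826 to 0.397). Hbegf at 72.0 CPM was below its reference level of 92.4. Of 8 tested wound matrix and lectin genes Spp1 and Thbs1 (thrombospondin-1, 2.59-fold, 2.33 to 2.88) were higher, with a median of 0.68. Of 23 genes of low oxygen and glycolysis Vegfa and Ero1l were past the fold and none was lower, with a median of 0.52. Hmox1 (heme oxygenase, 2.27-fold) and the metallothionein Mt1 (2.13-fold) led the heme, iron and redox list, in which Slc40a1 was lower. Of 9 tested lipid handling genes 2 were higher and none lower, with a median of 0.14. They were Plin2, the coat protein of lipid droplets (2.15-fold), and Fabp5, a fatty acid binding protein (2.16-fold). The list as a whole took 0.913% of the UMIs of members and 0.926% in the other phagocytes.

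Genes of MHC class II stood out as a group. Where 3.07% of all genes tested were lower, 6 of 7 tested genes of this list were at least 2-fold lower than in the other phagocytes, with a list median of -1.78. They were H2-Eb1 (0.269), Cd74 (the invariant chain, 0.273), H2-DMb1 (0.291), H2-Aa (0.292), H2-Ab1 (0.328) and H2-DMa (0.476). These are Cd74 and all H2 genes of the list, so that the other tested gene was Ciita, Cd86 or Cd40. The list took 0.166% of the members' UMIs, 0.522% in the other phagocytes and 0.316% in neutrophils. The other phagocytes were not asked to lack dendritic cell markers, which had 46 UMIs (0.00912%) in them and 8 (0.00156%) in members. The part of dendritic cells in this difference was not tested. The reference barcodes, which include B cells and endothelium with MHC class II of their own, had 0.167%. C1qa (0.217) and C1qc (0.417) were lower too. The macrophage list had a median of -0.38, with none of 12 genes higher.

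**Figure D4:**
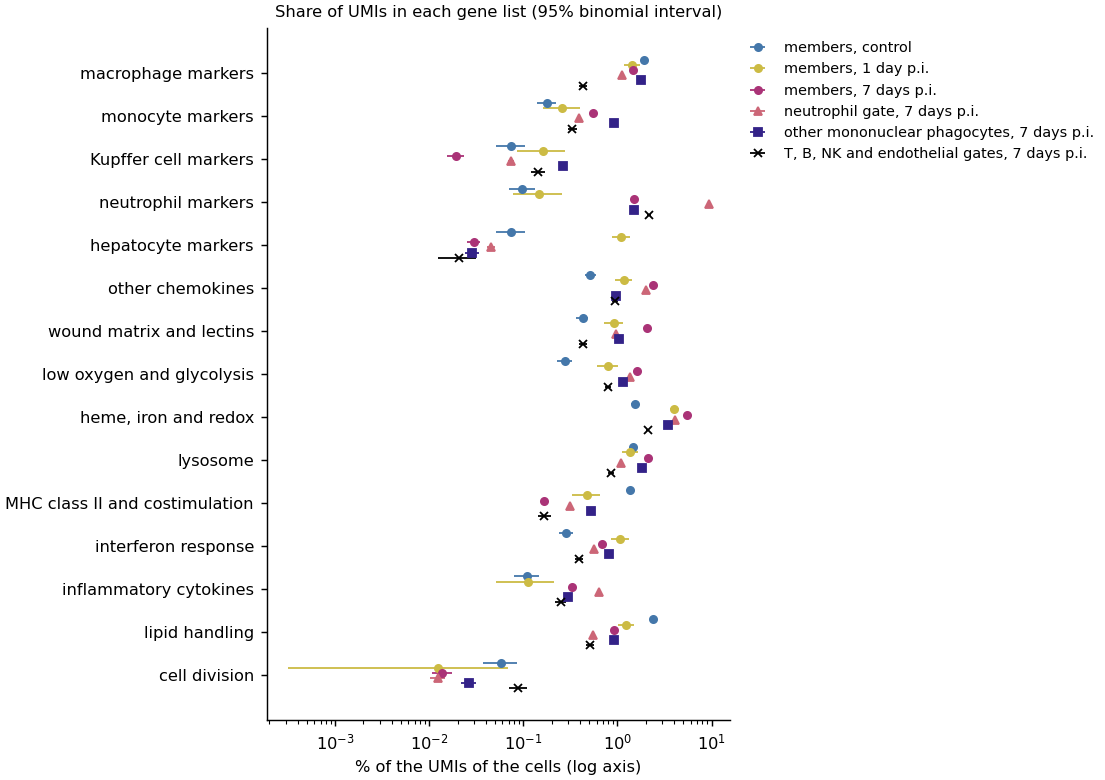
Percentage of UMIs taken by each gene list (log axis, 95% binomial intervals) in the members of the 3 libraries, in neutrophil-gate barcodes, in other mononuclear phagocytes and in the T, B, NK and endothelial barcodes that give the reference level. Of the groups drawn, members at 7 days p.i. had the highest share for wound matrix and lectins (2.06%) and for heme, iron and redox genes (5.51%), though the 45 Gpnmb-type barcodes, drawn within the other phagocytes, had 2.25% and 6.18%. Their share of MHC class II and costimulation (0.166%) was next to the reference level (0.167%).

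The 10 genes of alternative activation, the state that type 2 cytokines induce in macrophages, took 0.185% of the members' UMIs, 0.236% in the other phagocytes and 0.0945% in the reference barcodes. Retnla had 1 UMI, Mgl2 2 and Clec10a 13, and Mrc1, the mannose receptor, was at 161 CPM, below its reference level of 431. The reference barcodes include endothelium, and how much of this Mrc1 level is their own transcript was not tested. Chil3 (listed as Chi3l3) had most of the list's UMIs at 1311 CPM, but it was higher in the other phagocytes (1838 CPM).

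Members also differed among themselves. Those with more rule genes were deeper, at a median of 460.5 UMIs for the 554 with 2 rule genes, 525 for the 288 with 3 and 638.5 for the 64 with all 4, and the part of depth in the following values was not tested. Levels relative to all UMIs also differed between them. Pf4 was at 1581 CPM (1441 to 1730) with 2 rule genes, 3045 with 3 and 3886 (3324 to 4517) with 4. Ppbp was at 101 (68.2 to 144), 196 and 754 CPM (519 to 1059). Since the members are split here by what chose them, these values are a description. Spp1 was at 6040 CPM with 2 rule genes and 9213 (8335 to 10158) with 4. The chemokine Ccl4 was at 681 and 2400 CPM (1963 to 2906), and Rsad2, an antiviral gene induced by interferon, at 779 and 1623 CPM (1268 to 2047). Clec4e, a C-type lectin receptor, went the other way, at 293 (235 to 362) and 91.4 CPM (24.9 to 234).

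Across libraries, members at 7 days p.i. were set beside those of control (45 members, 43035 UMIs). Cxcl3, Cxcl2, Pgk1, Hilpda, thrombospondin and osteopontin were higher at 7 days p.i. C1qa, Apoe and 5 of 6 tested genes of the MHC class II list, which also holds Ciita, Cd86 and Cd40, were lower. The remaining tested gene of the list was higher. Of 1773 genes, 559 were at least 2-fold higher (31.5%) and 107 at least 2-fold lower (6.03%). The median gene ratio was 0.48 on the log2 scale, and with it set to 1 the counts were 328 and 265. The higher calls were then 55.3% of all calls in place of 83.9%. Without the shared barcodes 532 genes were higher and 104 lower. The control members had 43035 UMIs against 514199 at 7 days p.i., so that a gene reached the minimum of 50 UMIs mostly through its level at 7 days p.i. and genes high in control alone seldom did. How far this filter sets the balance of higher and lower calls was not tested, and nothing is read from the balance. In the other kept barcodes, where control was the deeper group (7970765 against 2544768 UMIs), 868 genes were higher and 2149 lower of 10108, under the same filter. Cxcl3 had 1762 UMIs (3427 CPM) in members at 7 days p.i., 11 UMIs at 1 day p.i. (1361 CPM) and 0 in control. It was at least 39.9-fold higher than in control, by the lower limit computed with the count of 0. With the 0 set to a floor of 3 counts over the group, the ratio was 49.2-fold. Cxcl2 was at 3874, 1361 and 116 CPM in the same order, 33.3-fold higher than in control (14.3 to 103). Thbs1 was at 2530, 866 and 92.9 CPM, 27.2-fold (10.6 to 100). Spp1 was at 7369, 3711 and 1046 CPM. For these genes the members at 1 day p.i. lay between those of control and of 7 days p.i. The other kept barcodes of both libraries differed in the same genes, at 388-fold (289 to 535) for Cxcl3, 95.2-fold (86.8 to 105) for Cxcl2, 65.9-fold for Thbs1 and 6.16-fold for Spp1, so that these differences were not particular to members.

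Pgk1 and Hilpda had 1 UMI each in control members and 478 and 393 at 7 days p.i., ratios of 40.0 (7.15 to 1583) and 32.9 (5.87 to 1302), against 7.11 and 29.8 in the other kept barcodes. Other high ratios were those of Ifitm1 (30.1), Ecm1 (23.4), Lcn2 (19.8), S100a8 (19.1), Chil3 (listed as Chi3l3, 18.8), Slc3a2 (16.7) and S100a9 (15.6). Ifitm1, Ecm1, Lcn2, Chi3l3 and Slc3a2 rest on 1 to 3 UMIs in control, with lower bounds between 2.97 and 6.41 and upper bounds between 91.4 and 1193. All 21 tested genes of low oxygen and glycolysis were at least 2-fold higher, against 31.5% of all genes tested. The list had 8385 UMIs in members at 7 days p.i. and 119 in control members. Its genes thus reached the UMI minimum mostly through 7 days p.i., and nothing is read from this count. The list took 1.63% of the UMIs of members at 7 days p.i., 0.792% at 1 day p.i. and 0.277% in control. The other kept barcodes also differed in this list, with 1.32% at 7 days p.i. and 0.254% in control. S100a8, S100a9 and Lcn2 are neutrophil genes, which at 7 days p.i. were near their reference levels of 9212, 8216 and 390 CPM or below them.

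The MHC class II list took 1.37% of the UMIs of control members, 0.470% at 1 day p.i. but 0.166% at 7 days p.i. In the other kept barcodes of these libraries it took 0.818%, 0.426% and 0.428%, so that members were above the other barcodes in control and below them at 7 days p.i. H2-Eb1 was at 3091 CPM in control members, 866 at 1 day p.i. but 214 at 7 days p.i., a ratio of 0.0692 (0.0533 to 0.0898) between the last and the first. Its ratio between the same libraries in the other barcodes was 0.415 (0.395 to 0.437). H2-Aa (0.115), H2-Ab1 (0.116), Cd74 (0.137), C1qa (0.106), Tmem176b (0.131), Rock2 (0.152) and Sepp1 (0.180) were the other lowest genes. Apoe, apolipoprotein E, was at 21912 CPM in control members and 5379 at 7 days p.i. Ccl8, a chemokine of the same family as Ccl2, had 39 UMIs in the 45 control members (906 CPM) and 5 in the 906 of 7 days p.i. (9.72 CPM). Control members held mesenchymal markers at 0.153% of UMIs, and 3 of the 45 had at least 2 genes of the mesenchymal gate. Their part in the chemokine counts was not tested.

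The 14 members at 1 day p.i. gave 8084 UMIs. Interferon response genes took 1.08% of them (0.863% to 1.33%), against 0.286% in control members and 0.684% at 7 days p.i., with Rsad2 at 2350, 232 and 860 CPM. In the other barcodes of that library the list took 0.240%. Fth1 (ferritin heavy chain) was at 18926 CPM at 1 day p.i., 5740 in control and 25739 at 7 days p.i. In the other kept barcodes it was at 2609, 4501 and 22223 CPM in the same order, so that control and 7 days p.i. differed there too. Hepatocyte markers took 1.10% of the UMIs of these 14 members, and each of them had at least 1 marker, with Alb at 3464 CPM against 75.8 at 7 days p.i. In the other barcodes of that library they took 2.81%. The hepatocyte markers were thus lower in the members than around them.

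Transcripts of cell division were rare. The 10 cell division genes had 71 UMIs in the 906 members at 7 days p.i. (0.0138%), 25 in control members (0.0581%) and 1 at 1 day p.i., and Mki67 had 1, 5 and 0. Mitochondrial genes took 3.28% of the UMIs of members at 7 days p.i., 16.1% at 1 day p.i. and 19.6% in control. In the other kept barcodes they took 4.27%, 21.8% and 20.5%, so that members were below the other barcodes in all 3 libraries.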

How the data were processed

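Drop-seq was run on 3 libraries of digested mouse liver, each pooled from 3 animals. The deposited tables hold counts of UMIs per gene and barcode. According to the labels, the authors made these counts with the Drop-seq tools, which collapse reads by barcode and UMI and, per the file headers, took sense reads over coding and UTR bases. The submitters' processing notes name STAR 2.5.2a and the build hg19, a human build, although the gene symbols are those of mouse. No coordinates or sequences are therefore given. The file headers state the threshold of 200 genes, but barcodes under it are in the tables, and it was applied here.

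The 3 tables hold 19091 genes. Of the 4 rule genes, 1 is not reported here. Members and gene lists were chosen with earlier results of these data known. Of 359 list genes 357 were found, 2 of them under an older symbol. UMIs were summed over the barcodes of a group and divided by the group's total (CPM). Intervals at 95% are exact Poisson for CPM, Clopper-Pearson for shares and conditional binomial for ratios, and they cover counting error only. With 1 library per condition no test was run and no p-value is given. A gene was called at a ratio of 2 or more, or 0.5 or less, when both groups together had at least 50 UMIs. For a ratio a count of 0 was set to 3, whereas its interval used the count of 0. Genes were named by rule, namely the 12 highest and 8 lowest ratios, without gate, mitochondrial, globin, ribosomal protein and Gm-numbered genes, and members of the gene lists. This rule was used for members at 7 days p.i. against neutrophils, the other phagocytes and control members. Against the 14 members at 1 day p.i., with 8084 UMIs, 178 genes were at least 2-fold higher and 517 lower of 1679. They were not named by rule, and nothing is read from this balance. No doublet caller was run. The calculation of ratios and intervals was tested on simulated data. Python 3.11.15 with numpy 2.4.6, scipy 1.17.1, pandas 2.3.3 and matplotlib 3.10.9 was used. Alternatives to the gene minimum, the rule, the scaling, the UMI minimum and the depth were run.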

Additional observations from a re-analysis of the deposited data

Results flagged for a closer look

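Barcodes with fewer than 200 genes enter no comparison, yet at 7 days p.i. a part of them met every other criterion of the rule. These were 329 of 6842, 4.81% (4.31% to 5.34%), with a median of 217 UMIs. In control it was 1 of 5318, 0.0188%, and at 1 day p.i. 2 of 8908, 0.0225%. The share at 7 days p.i. was above the level of the control library. Before the exclusions, 407 of the 6842 (5.95%) had at least 2 rule genes, at a median of 215 UMIs. Among kept barcodes with T, B, NK or endothelial genes this share was 7.41% at a median of 525 UMIs and 4.05% when thinned to 300 UMIs, and as the depths differ no order is read from these shares. How many of these barcodes hold a cell was not tested.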

How the results depend on the processing

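Each condition has 1 library, so no replicate could be left out. No paired analysis was possible because each condition has 1 library. In each of 11 alternatives the share of members was higher at 7 days p.i. than in the other libraries, with values from 6.26% to 23.7%. A minimum of 300 genes gave 19.0% at 7 days p.i. and 0.583% in control. A minimum of 500 gave 17.1%, 0.856% and, at 1 day p.i., 0. Every deposited barcode gave 9.91% and 0.293%. At least 3 rule genes gave 6.26%, 0.0385% and, at 1 day p.i., 0.0432%. At least 2 of Ccl2, Ccl7 and Ccl12 gave 7.84%, 0.298% and 0.0757%, and no exclusions 23.7%, 1.01% and 0.281%. Thinning gave 0.167% in control. Against neutrophils, 20 UMIs gave 462 higher and 631 lower and 200 UMIs 62 and 82. With 300 genes per barcode it was 60 and 136, and with the median ratio set to 1, 123 were higher. Against the other phagocytes, 20 UMIs gave 169 and 359, 200 UMIs 22 and 19, and thinning 60 lower. A higher UMI minimum leaves fewer genes to compare. The cause of the other shifts was not tested. Thinning against neutrophils gave 261 higher and 212 lower. The alternative without shared barcodes was chosen after seeing the data and moved none of these results by more than 1.5 times. At 492.5 UMIs per member, a gene without a UMI in 1 member may still be expressed there.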

Other observations

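Genes of iron storage were abundant in the members at 7 days p.i. Ferritin heavy chain (Fth1) was at 25739 CPM in members, 24673 in neutrophils, 15738 in the other phagocytes and 10208 in the reference barcodes of T, B, NK and endothelial cells. In the barcodes with fewer than 200 genes of that library it was at 27716 CPM, above the members. Ferritin light chain (Ftl1) was at 24205 CPM (23781 to 24634), 13661, 15223 and 7939 CPM. Both were lower in control members, at 5740 and 7552 CPM, and at 18926 and 17442 CPM in members at 1 day p.i. The other kept barcodes differed alike between control (4501 and 6765 CPM) and 7 days p.i. (22223 and 16208 CPM).

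Cytokine genes other than chemokines differed in level. The inflammatory cytokine list took 0.332% of the members' UMIs, 0.295% in the other phagocytes and 0.633% in neutrophils. Among the 906 members Il1b had 447 UMIs (869 CPM) and Osm (oncostatin M) 148, whereas Il6 had 5 UMIs, Tnf 24 and Il10 0, which allows Il10 up to 7.17 CPM. Il1rn, the antagonist of the interleukin-1 receptor, was at 546 CPM, Cd14, a receptor for bacterial lipopolysaccharide, at 1435 CPM (1334 to 1543), and both were higher in neutrophils, at 895 and 2641 CPM. Of the chemoattractant receptors, Ccr1 was at 685 CPM (615 to 760) in members and 849 in neutrophils, and C5ar1, the receptor of complement C5a, at 459 and 371 CPM.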
